A study of Mus musculus with 4 samples.

Results

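The glycerol phosphate shuttle and glycerol recycling genes are 6 genes, Gpd1, Gpd2, Gpd1l, Gk, Aqp7 and Pck1, and all 6 had a value among the 13677 genes in the tables. They were chosen by gene symbol, matched to the Ensembl identifiers of the tables. RNA of mouse inguinal white adipose tissue, which lies under the skin, was sequenced in 2 wildtype (WT) libraries and in 2 libraries (FLCNKO) whose label names a knockout of the folliculin gene Flcn in adipose cells. The sources used here give no strain, age, sex, diet or driver of the deletion, and no label says whether a library is 1 animal or a pool. The p-values below therefore measure only the spread between these libraries, which may be technical. Values are the log2 expression values the authors deposited, and the depth behind them is unknown.

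Glycerol 3-phosphate stands where sugar use, fat storage and respiration meet. Gpd1 encodes the cytosolic dehydrogenase that interconverts dihydroxyacetone phosphate and glycerol 3-phosphate with NADH, and Gpd1l encodes a related cytosolic protein. Gpd2 encodes the mitochondrial flavoprotein that oxidises glycerol 3-phosphate back and passes the electrons to coenzyme Q, so that Gpd1 and Gpd2 together carry reducing power from the cytosol into the respiratory chain. Adipocytes also need glycerol 3-phosphate as the backbone of triglyceride. It can come from glucose, from glyceroneogenesis, which runs through the cytosolic phosphoenolpyruvate carboxykinase Pck1, or from free glycerol through the glycerol kinase Gk. White adipocytes are known for little glycerol kinase and release glycerol through the channel Aqp7, whereas brown adipocytes are known for more Gk and for abundant Gpd2.

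Promoter sequence is given for Gpd2 and Gk, the members whose WT and FLCNKO means lay farthest apart, and for Gpd1l, whose means nearly coincided. The sequences are RefSeq windows of the build GRCm38.p6, another build than the mm9 named for these files. They run 5′ to 3′ on the gene's strand, within the 250 bases before the annotated start and outside annotated exons. The Gpd2 stretch lies at chr2:57237428-57237634 on the plus strand, the Gk stretch at chrX:85776820-85777069 on the minus strand and the Gpd1l stretch at chr9:114933988-114934237 on the minus strand. Another window of Gpd2, at chr2:57238132-57238381, lay wholly within annotated exons and is not shown. Capitals mark the letters CACGTG, the E-box that MiT/TFE transcription factors among others can bind.
Gpd2: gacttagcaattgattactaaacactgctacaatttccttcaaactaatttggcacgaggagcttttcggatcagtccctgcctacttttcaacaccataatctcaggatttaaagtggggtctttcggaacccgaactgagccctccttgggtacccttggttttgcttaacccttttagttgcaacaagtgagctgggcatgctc
Gk: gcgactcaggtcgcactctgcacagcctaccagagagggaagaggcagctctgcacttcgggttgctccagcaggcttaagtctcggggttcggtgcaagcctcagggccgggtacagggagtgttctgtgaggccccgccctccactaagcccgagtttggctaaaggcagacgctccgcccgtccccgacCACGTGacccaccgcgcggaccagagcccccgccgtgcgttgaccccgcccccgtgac
Gpd1l: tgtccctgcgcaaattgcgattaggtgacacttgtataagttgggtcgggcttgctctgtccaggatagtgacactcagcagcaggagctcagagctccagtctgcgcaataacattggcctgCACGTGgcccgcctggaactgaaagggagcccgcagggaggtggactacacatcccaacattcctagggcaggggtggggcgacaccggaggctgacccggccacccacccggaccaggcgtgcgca

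CACGTG occurred once in the Gk window, 58 to 53 bases before the start, and once in the Gpd1l window, 127 to 122 bases before it. It was not in the 250 bases of the other 5 windows of the members, which belong to Gpd2, Aqp7 and Pck1. Over all 32851 windows of that length, 6.02% held CACGTG. The other letters searched were in none of the 7 windows of these 5 members. They included TCAAGGTCA, an element of the estrogen-related receptors (0.387% of all windows), and TGACGTCA, the palindromic form of the cAMP response element (1.55%). The last was the direct repeat of AGGTCA with 1 base between its copies (0.0335%). Both strands were searched, and none of these letters overlapped another. Only exact letters were counted, so variant forms of such sites were missed. The Pck1 window, for example, holds TTACGTCA, a near match to TGACGTCA. Gpd1 had no window in the table. The E-box was present in the window of Gk, whose FLCNKO values were higher but not called. It was also in that of Gpd1l, whose values overlapped WT. Its part in the values of the members was not tested.

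The cytosolic and mitochondrial enzymes of the shuttle were both higher in the FLCNKO libraries, and the mitochondrial one passed the test. Gpd2 had values of 12.80 and 12.63 in the WT libraries and 15.34 and 14.62 in the FLCNKO ones. Both FLCNKO libraries lay far above both WT libraries, and replicate 1 was the higher of them. The mean of Gpd2 rose from 12.72 ± 0.11 to 14.98 ± 0.51 (SD, n = 2), a log2 fold change of 2.26 ± 0.25 (SE; limma adjusted p = 0.0404), or 4.79-fold. In rank among the 13677 genes of a library, Gpd2 stood at 2013 and 2283 in WT, against 198 and 412 in the FLCNKO libraries. Leaving out any 1 library kept the change of Gpd2 between 1.90 and 2.62 and ended its call (adjusted p from 0.0615 to 0.246). It was the 85th gene by p-value and the 90th by size of rise.

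Gpd1 was among the highest deposited values of every library, with values of 16.90 and 16.95 in WT, against 18.31 and 17.98 in the FLCNKO libraries. The WT libraries were almost equal, and both others lay above them. The means were 16.92 ± 0.04 and 18.15 ± 0.24 (SD, n = 2), and the log2 fold change of 1.22 ± 0.17 (SE; 2.33-fold) fell just short of the threshold (limma adjusted p = 0.0505). By rank, Gpd1 stood at 59 and 57 in WT, against 18 and 22 in the FLCNKO libraries. At these ranks the deposited values are shared steps, because the libraries were brought to nearly the same distribution. The value 18.31 is that of Gpd1 in FLCNKO replicate 1 and of Pck1 in replicate 2, both at rank 18. The SD of a gene so near the top follows these steps of rank.

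Gpd1l, the relative of Gpd1, did not separate the libraries by group. Its values were 12.32 and 12.40 in WT, against 12.32 and 12.52 in the FLCNKO libraries, so that the groups overlapped. The log2 fold change of Gpd1l was 0.06 ± 0.12 (SE; limma adjusted p = 0.821; n = 2 per group), and its 95% interval ran from -0.25 to 0.36. That interval lies below the one for Gpd1, from 0.78 to 1.67, and the one for Gpd2, from 1.62 to 2.90.

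Among the genes of glycerol uptake, release and reuse, none passed the test. Gk had values of 9.90 and 9.88 in WT, against 12.67 and 10.47 in the FLCNKO libraries. The WT libraries were nearly identical, and the FLCNKO ones lay above them but far from each other. The log2 fold change of Gk was 1.68 ± 0.70 (SE; limma adjusted p = 0.244; n = 2 per group), and its 95% interval ran from -0.11 to 3.46. The difference of 2.20 between the FLCNKO libraries was larger than that of 98.7% of all genes, while the WT difference of 0.01 was larger than that of only 5.71%. Without FLCNKO replicate 1 the log2 fold change of Gk was 0.58, and without replicate 2 it was 2.77.

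Aqp7, the aquaglyceroporin of adipocytes, had values of 13.70 and 13.22 in WT, against 13.92 and 13.86 in the FLCNKO libraries. The WT libraries differed from each other by 0.47, with replicate 2 the lowest of the 4. The log2 fold change of Aqp7 was 0.43 ± 0.18 (SE; limma adjusted p = 0.246; n = 2 per group), and leaving out WT replicate 2 gave 0.19, leaving out WT replicate 1 0.66. Pck1 had the highest values of the members, of 18.71 and 17.98 in WT, against 18.79 and 18.31 in the FLCNKO libraries. The groups overlapped, and replicate 1 was the higher library in each. The log2 fold change of Pck1 was 0.21 ± 0.32 (SE; limma adjusted p = 0.749), and its 95% interval ran from -0.60 to 1.01. Its direction turned without WT replicate 2 (-0.16) and without FLCNKO replicate 1 (-0.031).

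**Figure D1:**
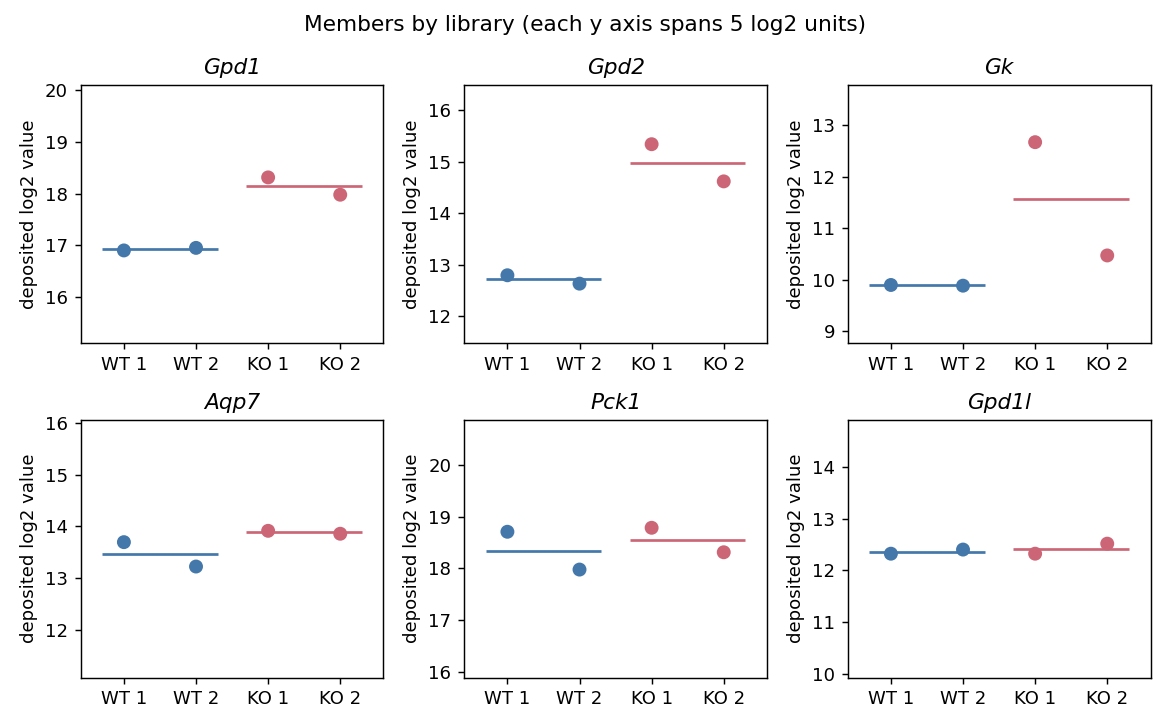
Deposited log2 value (y axis, 5 log2 units in every panel) of each member in the 2 WT (blue) and 2 FLCNKO (KO, red) libraries on the x axis, with a line at each group mean. Gpd2 and Gpd1 lie higher in both FLCNKO libraries, Gk splits between 12.67 and 10.47, and Pck1 and Gpd1l overlap WT.

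Counted together, 1 of the 6 members was called higher (Gpd2) and 0 lower by limma at an adjusted p under 0.05. Over all genes 0.98% were called higher and 0.614% lower. At an unadjusted p under 0.05, 2 members were higher (Gpd1 and Gpd2) and 0 lower, against 12.1% and 10.3% of all genes. In 4 members, Gpd1, Gpd2, Gk and Aqp7, both FLCNKO libraries lay above both WT libraries. Over all genes 29.2% had such a pattern, and 25.4% had the opposite one. The median log2 fold change was 0.83 over the 6 members and 0.0046 over all genes tested. With a filter on a mean value of at least 8, robust moderation, array weights or a replicate block, Gpd1 was called beside Gpd2. Without the trend on mean expression, or with any 1 of the 4 libraries left out, no member and no gene of the table was called (2702 genes without the trend, and 1395 to 3455 with a library left out, at an unadjusted p under 0.05). The direction of Gpd2 and Gpd1 was the same in each of these fits. It could not turn, since both FLCNKO libraries lay above both WT libraries for these genes.

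**Figure D2:**
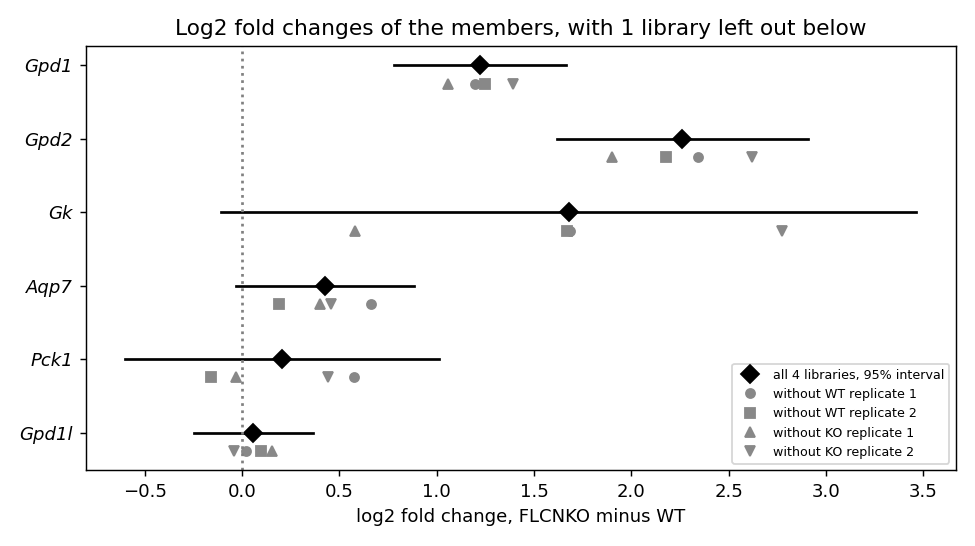
Log2 fold change of each member (x axis, mean of the FLCNKO libraries minus the WT mean), as a diamond with its 95% interval from limma, and below it in grey the value with 1 library left out. Gpd2 stays between 1.90 and 2.62 and Gpd1 between 1.06 and 1.39, Gk ranges from 0.58 to 2.77, and Pck1 and Gpd1l cross 0.

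Differences between members within a library remove any scaling of the library, and gene length cancels in their change between groups. The log2 value of Gpd2 minus that of Gpd1 was -4.10 and -4.31 in WT, against -2.98 and -3.36 in the FLCNKO libraries. The change of 1.04 puts Gpd2 up by more than Gpd1 in both FLCNKO libraries. Gpd1l minus Gpd1 changed by -1.17, from -4.57 and -4.54 to -5.99 and -5.46, and Gpd2 minus Gpd1l by 2.20. Gpd2 minus Pck1 changed by 2.05 and Gk minus Pck1 by 1.47. In these 5 pairs the groups did not overlap. Gk minus Aqp7 was -3.80 and -3.34 in WT, against -1.25 and -3.39 in the FLCNKO libraries, so that those groups overlapped (change 1.25). With 2 libraries against 2, the smallest p that an exact two-sided permutation test can give is 0.333. That was the p of the 5 pairs without overlap (0.4 after Benjamini-Hochberg adjustment over the 6 pairs), and Gk minus Aqp7 had an exact permutation p of 0.667 before and after adjustment.

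Levels were compared between members after subtracting the log2 of the exonic length in kilobases, taken from GENCODE M21 as the union of a gene's exons. The comparison assumes that the deposited values were not already scaled by gene length, which the sources used here do not state. On this log2 per-kilobase scale, Pck1 was highest in every library (16.93 and 16.20 in WT, 17.01 and 16.54 in the FLCNKO libraries) and Gpd1 followed (15.33 and 15.38, then 16.75 and 16.41). The distance between them was thus 1.60 and 0.82 in WT, against 0.26 and 0.12 in the FLCNKO libraries. Aqp7 lay between 11.72 and 12.42 per kilobase. Gpd2 was at 10.09 and 9.92 in WT, beside Gpd1l at 9.98 and 10.06, and those neighbours did not differ beyond their spread. In the FLCNKO libraries, Gpd2 stood at 12.63 and 11.90, beside Aqp7 (12.42 and 12.36), while Gpd1l stayed at 9.98 and 10.18. Gk was lowest in WT (6.95 and 6.93) and stood at 9.71 and 7.52 in the others. With the longest coding transcript as the length, Gk (10.55) passed Gpd1l (10.19) in FLCNKO replicate 1.

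Counting could mix reads of neighbours for some members, since the sources used here do not give the strand setting. Gpd1 shared 11.0% of its 31-base stretches with transcripts of Gm16537 on the opposite strand, a gene without a value in the tables. Gpd2 shared 6.52% with A930012O16Rik on the opposite strand. A930012O16Rik had values of 7.62 and 7.71 in WT, against 8.45 and 8.44 in the FLCNKO libraries (log2 fold change 0.78 ± 0.23, SE; limma adjusted p = 0.144), far below those of Gpd2. For Gk the shared part was 2.18%, including stretches of the retrogene Gk2, for Aqp7 6.23%, for Gpd1l 1.55% and for Pck1 0.432%.

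The surrounding pathways were described with 9 lists holding 63 measured genes other than the members, of which 8 rose and 0 fell by limma (21 higher and 6 lower at an unadjusted p under 0.05). Their median log2 fold change was 0.12. For these and the list counts below, the shares over all genes were 0.98% called higher and 0.614% lower. At an unadjusted p under 0.05 those shares were 12.1% and 10.3%. Among the genes of enzymes that, like Gpd2, hand electrons to coenzyme Q through a flavin, 3 of 8 rose, counting Gpd2, with a median of 0.46. Sdha and Sdhb among them belong to the same enzyme. Etfdh, the electron transfer flavoprotein dehydrogenase that takes electrons from fatty acid oxidation, rose from 13.64 and 13.67 to 15.47 and 15.00 (log2 fold change 1.58 ± 0.18, SE; limma adjusted p = 0.0404). Sdhb, a subunit of succinate dehydrogenase, rose by 0.92 ± 0.12 (adjusted p = 0.0478), and its partner Sdha had a change of 0.77 that did not pass (adjusted p = 0.1002). The other 4 members of this list, Dhodh, Prodh, Sqor and Chdh, did not pass either, with log2 fold changes from -0.35 to 0.15. Gpd2 had the largest change of the 8.

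The malate-aspartate shuttle, the other route by which NADH of the cytosol reaches mitochondria, had 0 of 7 genes called (2 higher at an unadjusted p under 0.05) and a median of 0.22. Mdh2, the mitochondrial malate dehydrogenase, had a log2 fold change of 0.82 ± 0.13 (SE, n = 2 per group; limma adjusted p = 0.0549). It passed with the filter and with a replicate block. Slc25a11, the oxoglutarate carrier, was at 0.50, the cytosolic transaminase gene Got1 at 0.60 and the aspartate-glutamate carrier Slc25a12 at -0.63, and none of the 3 passed. The entry to glyceroneogenesis, a list that also holds Mdh2, likewise had 0 of 8 called, with 3 higher and 2 lower at an unadjusted p under 0.05. Pck2, the mitochondrial counterpart of Pck1, was at -0.51 ± 0.17 (adjusted p = 0.178). The dicarboxylate carrier Slc25a10 was at -0.79 ± 0.11 (adjusted p = 0.0509), and passed with the filter, with robust moderation and with a replicate block.

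Triose phosphates, the substrate from which Gpd1 makes glycerol 3-phosphate, come from aldolase. Aldoa, an aldolase gene, rose from 16.69 and 16.49 to 17.64 and 17.61 (log2 fold change 1.04 ± 0.14, SE; limma adjusted p = 0.0484, or 0.0508 with libraries centred on abundant genes). Ldhb, a lactate dehydrogenase subunit, rose by 1.49 ± 0.18 (adjusted p = 0.0419). Aldoa and Ldhb were the 2 of 8 genes of the list that rose. Ldha, another lactate dehydrogenase gene, was at 0.23 (limma adjusted p = 0.443). Gapdh and Pgk1 had log2 fold changes of 1.20 and 1.18 and did not pass (adjusted p = 0.0819 and 0.0588), although Pgk1 passed with robust moderation and with a replicate block. Near-identical copies make both uncertain: other genes' transcripts held 28.1% of the 31-base stretches of Gapdh and 54.7% of those of Pgk1.

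Downstream, in the acylation of glycerol 3-phosphate to triglyceride, 0 of 13 genes were called (3 higher and 2 lower at an unadjusted p under 0.05) and the median log2 fold change was 0.13. Agpat2, the acyltransferase of the adipocyte's second acylation step, went from 15.05 and 15.21 to 16.77 and 16.14 (1.33 ± 0.23, SE, n = 2 per group; limma adjusted p = 0.0625). It passed with a replicate block. Gpam, the mitochondrial enzyme of the step before it, was at 0.51, and Agpat3 at 0.54. Agpat4, 1 of the 2 lower genes, was at -0.50 (adjusted p = 0.155). In triglyceride hydrolysis, which frees the glycerol, 0 of 8 were called (2 higher at an unadjusted p under 0.05), with a median of 0.05. Mgll, the monoglyceride lipase that releases glycerol in the last step, had the largest difference, 0.74 ± 0.16 (adjusted p = 0.0825). The measured relatives of the glycerol channel and kinase did not pass. Aqp1 was at 0.05, Aqp9 at -0.25, Aqp11 at 0.70 and the kinase-like gene Gk5 at -0.50 on the log2 scale.

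Of 12 regulators known to act on Pck1, Gk or Aqp7 or on their partners, 4 rose: Ppara, Esrrg, Ppargc1b and Ppargc1a. At an unadjusted p under 0.05, 5 were higher and 1 lower, Rxra at -0.55 (limma adjusted p = 0.0654). Ppara, whose product switches on genes of fatty acid use, had the largest change of the lists, a log2 fold change of 3.10 ± 0.15 (SE; limma adjusted p = 0.0336). Pparg, the adipocyte receptor of the same family, was at -0.05 (adjusted p = 0.925). Like the other lists, this one was drawn up with earlier results of these data known, so its count is no independent evidence.

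**Figure D3:**
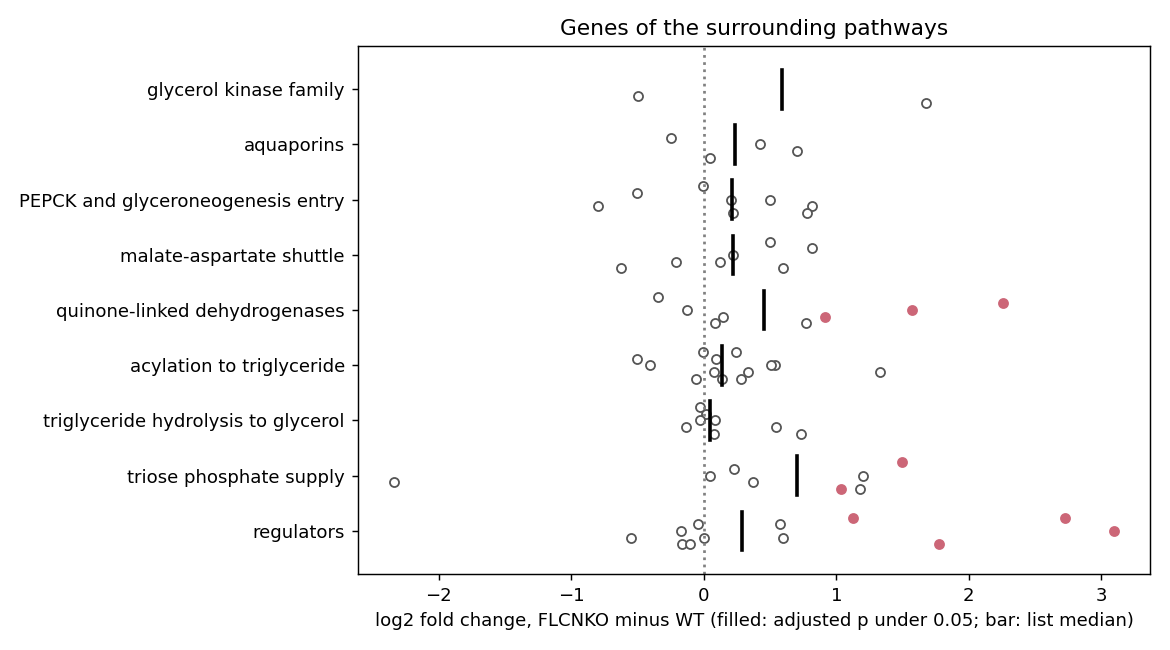
Log2 fold change (x axis, FLCNKO mean minus WT mean) of each measured gene of the 9 lists. Filled points mark adjusted p under 0.05, and a bar marks each list's median. The lists hold the members Gpd2, Gk, Aqp7 and Pck1, but not Gpd1 or Gpd1l. The called genes are 3 of the quinone-linked dehydrogenase list, 2 genes of triose phosphate supply and 4 regulators.

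The genes whose pattern over the 4 libraries was most like that of a member were found by the root mean square distance between log2 values, each centred on the gene's mean, among 11265 genes with a mean of at least 8. This is a description over 4 libraries, and similar fold changes and replicate order follow from the choice by pattern. For Gpd2 they were Fam69b (distance 0.097), mt-Nd6 (0.12) and Gys2 (0.14), with log2 fold changes of 2.20, 2.24 and 2.14. For Gpd1 they were Fbxo44 (0.032), Rtn4ip1 (0.032) and Coq7 (0.047), with log2 fold changes of 1.22, 1.24 and 1.14. The nearest to Gk were farther away, with Cxadr at 0.30, Hadhb at 0.43 and Zfp949 at 0.48. Their FLCNKO replicate 1 was also above replicate 2.

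Most brown and beige adipocyte markers were higher in the FLCNKO libraries, the direction of Gpd1 and Gpd2, while macrophage and fibroblast markers were lower. In bulk tissue, fewer cells of a type and less RNA per cell cannot be told apart. Of 10 brown and beige adipocyte markers 4 rose, Cox8b, Otop1, Plin5 and Ppargc1a (8 higher at an unadjusted p under 0.05). Ucp1 did not pass (limma adjusted p = 0.336). Its values overlapped between groups, with 10.6 and 7.4 in WT, against 13.8 and 10.1 in the FLCNKO libraries. Dio2 was at -0.08 (adjusted p = 0.972). Of the 10 markers, 9 were higher in FLCNKO replicate 1 than in replicate 2, the order also seen for every member except Gpd1l. The log2 of the summed level of these 10 markers was 14.42 and 13.79 in WT, against 17.71 and 16.46 in the FLCNKO libraries. This sum and Gpd2 were thus both higher by group and by library. Skeletal muscle, a tissue that also expresses both enzymes of the shuttle, had a summed log2 level of 17.47 and 14.42 in WT, against 16.36 and 13.41 in the FLCNKO libraries (0 of 14 markers called, and 0 at an unadjusted p under 0.05; lowest single value 2.37). Between the WT libraries the muscle sum differed by 3.05, while Gpd1, Gpd2 and Gk differed by -0.05, 0.16 and 0.01. Between the FLCNKO libraries the muscle sum was 2.95 higher in replicate 1, where 13 of 14 muscle markers were higher. Gk, Gpd2 and Gpd1 were higher there too, by 2.20, 0.72 and 0.34. So were Pck1 and Aqp7, by 0.47 and 0.06, while Gpd1l was lower there (-0.19). Pck1 and Aqp7 were also higher in WT replicate 1 than in WT replicate 2, by 0.73 and 0.47.

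White adipocyte markers summed to 22.10 and 22.06 in WT, against 21.89 and 21.99 in the FLCNKO libraries on the log2 scale, with 0 of 10 called (3 lower at an unadjusted p under 0.05) and a median log2 fold change of -0.22. These are general adipocyte genes, several of them shared with brown fat, so their levels show adipocyte RNA in all 4 libraries and do not identify the depot. Macrophage markers (2 of 8 called lower, and 7 lower at an unadjusted p under 0.05) summed to 17.11 and 16.91 in WT, against 16.29 and 15.97 in the others, and fibroblast markers (3 of 7 called lower, and all 7 lower at an unadjusted p under 0.05) to 20.00 and 19.86 and to 18.97 and 18.82. Endothelial sums lay between 15.07 and 15.40 in all libraries, with 0 of 7 called (1 lower at an unadjusted p under 0.05). Of 6 epithelial markers 3 had a value, their sums lay between 8.11 and 9.11, and 0 were called at either threshold. The part of these cell types in the values of the members was not tested.

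**Figure D4:**
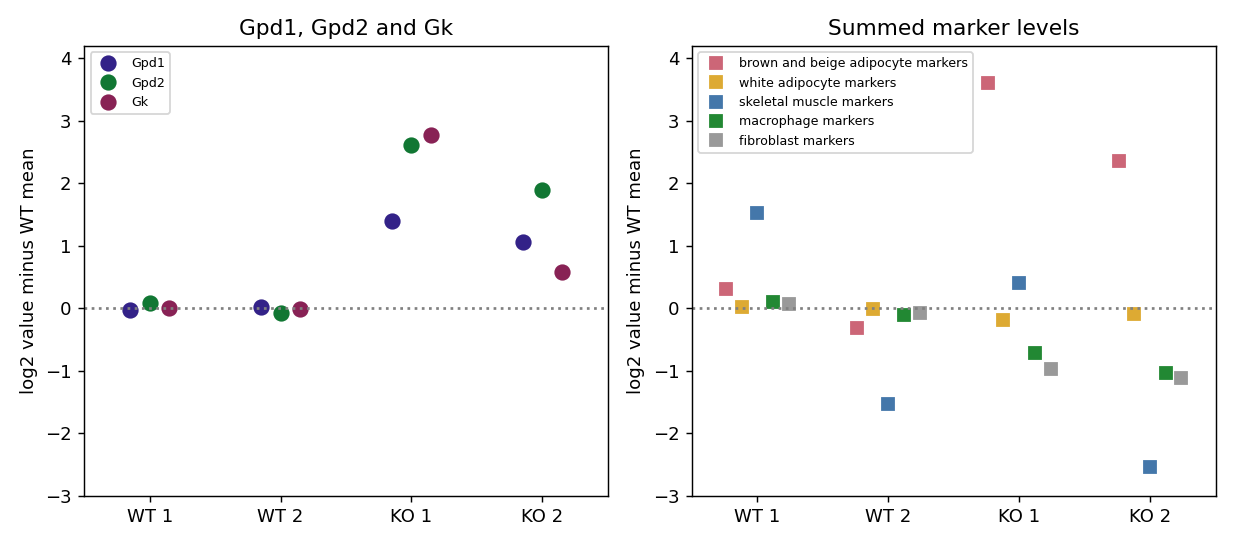
Log2 value minus the WT mean (y axis) in each library (x axis), for Gpd1, Gpd2 and Gk on the left and for the log2 of the summed level of 5 marker lists on the right. Gpd1, Gpd2 and Gk lie near 0 in both WT libraries, while the muscle sum differs by 3.05 between them, and in the FLCNKO libraries the brown and beige sum is high in both.

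Flcn itself, the gene named as deleted, overlapped between groups. It had values of 12.36 and 12.21 in WT, against 12.35 and 12.12 in the FLCNKO libraries (log2 fold change -0.05 ± 0.13, SE, n = 2 per group; limma adjusted p = 0.852). Which exons were deleted is not stated, and cells other than adipocytes contribute RNA, so this value checks no label. The median absolute log2 difference over genes was 0.147 between the WT libraries and 0.247 between the FLCNKO ones.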

How the data were processed

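RNA of inguinal fat was sequenced in 2 WT libraries and 2 libraries labelled FLCNKO, grouped by their titles. The authors deposited 1 table per library of log2 values, brought to nearly the same distribution in all libraries (library medians 10.7636 to 10.7645). A shift shared by most genes could therefore not be seen. Per the submitters' processing notes, STAR, limma and the build mm9 were used, with no version stated. The sources used here do not give the counting program, annotation or strand setting, and depth is unknown, so no counting interval is given.

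Symbols were matched by Ensembl identifier for 13592 of 13677 genes. A linear model of all genes' log2 values was fitted in limma 3.58.1 (R 4.3.3), with group as the only term, variances moderated with a trend on mean expression, two-sided tests and Benjamini-Hochberg adjustment over all genes (threshold 0.05). No filter was applied. The fit was tested on simulated data. Members, lists and the rule for named genes (members, called list genes, up to 4 genes per list by p, and the 3 nearest patterns per member) were chosen with earlier results of these data known. The exact permutation test was used for differences between members. Alternatives were a filter, repeated quantile normalization, 2 kinds of centring, no trend, robust moderation, array weights, a replicate block and leaving out each library. Sequences came from RefSeq (GRCm38.p6), and lengths and stretches of 31 bases from GENCODE M21. Figures were drawn with matplotlib 3.10.9.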

Additional observations from a re-analysis of the deposited data

How the results depend on the processing

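Leaving out any 1 library gave 0 genes called in either direction, 0 members and 0 other list genes (1395 to 3455 genes at an unadjusted p under 0.05). Fold changes then ranged from 1.90 to 2.62 for Gpd2 (adjusted p from 0.0615 to 0.246), 1.06 to 1.39 for Gpd1, 0.58 to 2.77 for Gk, 0.19 to 0.66 for Aqp7, -0.16 to 0.57 for Pck1 and -0.040 to 0.15 for Gpd1l on the log2 scale. Directions turned for Pck1 (-0.16 without WT replicate 2, -0.031 without FLCNKO replicate 1), Gpd1l (-0.040 without FLCNKO replicate 2), Flcn (0.020 without WT replicate 1 and 0.063 without FLCNKO replicate 2, in a range from -0.17), Abhd5 (-0.017 without WT replicate 1, up to 0.17), Aqp1 (-0.20 without FLCNKO replicate 2, up to 0.30) and Plin1 (0.13 without FLCNKO replicate 1, down to -0.41). Differences between members ranged from 0.85 to 1.23 for Gpd2 minus Gpd1, 1.75 to 2.66 for Gpd2 minus Gpd1l, -1.43 to -0.90 for Gpd1l minus Gpd1, 0.18 to 2.32 for Gk minus Aqp7, 0.61 to 2.33 for Gk minus Pck1 and 1.77 to 2.34 for Gpd2 minus Pck1.

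Without the trend limma called 0 genes in either direction (2702 at an unadjusted p under 0.05), so 0 members and 0 list genes (Gpd2 2.26, adjusted p = 0.140). The filter on a mean of 8 called 138 genes lower and robust moderation 143, against 84. With either, and with array weights, 2 members were called, Gpd2 and Gpd1 (1.22; adjusted p = 0.0425, 0.0467 and 0.0393), and with the filter and robust moderation 1 list gene was lower, Slc25a10, and 9 were higher against 8 (Mdh2 added with the filter, Pgk1 with robust moderation). Replicate numbers come from the titles, and no label says that they mark shared animals or batches. The difference of replicate 1 minus replicate 2 in WT correlated at 0.363 across genes with the same difference in FLCNKO. With a replicate block limma called 401 genes higher and 441 lower, 2 members (Gpd1 1.22, adjusted p = 0.0384), 11 list genes higher (Mdh2, Agpat2 and Pgk1 added, adjusted p = 0.0466, 0.0414 and 0.0404) and 1 lower (Slc25a10). Repeated quantile normalization and both centrings moved no member across the threshold. Depth is unknown, so its part in the spread of low genes could not be measured.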
